A study of Mus musculus with 8 samples.

Results

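The genes described here encode the proteins of the cytosolic ribosome. They were measured in the livers of mice given an inhibitor of the microRNA miR-122 or a control. They were chosen by annotation and symbol and not by a measured value, as protein-coding genes with a cytosolic Rpl or Rps name, including the P-stalk genes Rplp0, Rplp1 and Rplp2 and the gene Rpsa. The rule found 81 genes among the 43629 genes with values. Of these, 32 carry names of the small 40S subunit and 49 carry names of the large 60S subunit. All 32 genes of the 40S subunit and 46 of the 60S subunit averaged at least 1 FPKM (fragments per kilobase of transcript, scaled to the size of the library) over the 8 livers and entered the test, 78 genes in all. Rpl3l, Rpl10l and Rpl39l were below that level.

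Liver RNA of 8 male C57BL/6 mice, 7 to 8 weeks old, was sequenced with 1 library per mouse. The 4 antagomiR-122 mice had received 5 µg of antagomiR-122, a chemically modified antisense inhibitor of miR-122, through the tail vein. The 4 antagomiR-control mice had received the same amount of a control antagomiR. All 8 mice were given 1 mg/kg of CL316243 under the skin 48 h later and were killed 2 h after that, so both groups carry the effects of this agonist of the β3-adrenergic receptor, and no group without it was compared. Which liver cells take up an antagomiR is not given in the labels, and whole liver was measured, so fewer cells of a type and less RNA per cell cannot be told apart.

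A ribosome holds one copy of most of its proteins, and cells make these proteins in step with ribosomal RNA. Ribosomal protein mRNAs are short and abundant, and they begin with a run of pyrimidines, the 5′ terminal oligopyrimidine tract. The kinase mTOR acts through this tract, and through the protein LARP1 that binds it, to tune how strongly the mRNAs are translated, while their transcription is tied to promoter factors such as GABP, Sp1 and YY1. Liver makes large amounts of plasma protein and keeps a correspondingly large pool of ribosomes.

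The pyrimidine tract is the sequence feature for which these genes are known, and the promoters below hold a pyrimidine run near the annotated transcription start. Each line gives 60 bases before and 20 bases from the RefSeq start (GRCm38.p6), 5′ to 3′ on the gene's own strand, with the unbroken pyrimidine run around the letters CTCTTTC in capitals. They are 5 of the genes that hold the run at or within 20 bases of the annotated start, spread over 4 chromosomes. Not all such genes are shown. In Rpl5 and Rps15a the marked run ends before the annotated start, and in Rpl18 it begins at base 2 counted from that start.
Rpl35, chr2:39005112-39005191, minus strand: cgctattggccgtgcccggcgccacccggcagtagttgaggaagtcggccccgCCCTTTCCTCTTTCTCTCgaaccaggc
Rpl5, chr5:107900468-107900547, plus strand: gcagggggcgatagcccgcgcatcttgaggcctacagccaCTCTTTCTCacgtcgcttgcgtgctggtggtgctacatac
Rpl18, chr7:45718011-45718090, plus strand: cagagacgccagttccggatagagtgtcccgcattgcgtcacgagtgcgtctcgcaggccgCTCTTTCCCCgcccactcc
Rps15a, chr7:118116128-118116207, minus strand: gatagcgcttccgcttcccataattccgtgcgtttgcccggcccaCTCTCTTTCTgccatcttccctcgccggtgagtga
Rpl35a, chr16:33056422-33056501, plus strand: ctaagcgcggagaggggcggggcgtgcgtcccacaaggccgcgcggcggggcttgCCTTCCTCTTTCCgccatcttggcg

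RefSeq start windows of 300 bases, 250 before and 50 from the start, were at hand for 60 of the genes, in 72 windows. The letters CTCTTTC on the transcribed sense occurred in 15 of the 72 windows, or 20.8%, against 3.93% of the windows of all genes tested. The same letters on the opposite sense, GAAAGAG, were in 6.94% of the windows of ribosomal protein genes and 3.55% of those of all genes tested. CCGGAAG, the core bound by ETS factors such as GABP, was found on either strand in 36.1% against 17.6%. AAGATGG, a core of YY1 sites, was in 15.3% against 7.31%. The Sp1 box GGGCGG was in 58.3% against 61.5%, the E-box CACGTG bound by Myc and Max in 11.1% against 10.1%, and TATAAA in 8.33% against 7.56%. These are matches of letters, they are given without a test, and the windows overlap where a gene has several starts.

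The ribosomal protein genes were among the most abundant liver mRNAs, and no member differed between the groups by the test. The 78 genes had a median of 201 FPKM, with quartiles at 143 and 252 FPKM, against a median of 8.02 FPKM over all 11131 genes tested. Their median log2 fold change was 0.044, against 0.010 over all genes tested, and single values ran between -0.07 and 0.14. The genes went up and down together from mouse to mouse. On the deposited scale they did so most among the antagomiR-122 mice, but not after scaling to equal summed FPKM. With 15 genes listed at 0 in antagomiR-122 mouse 4 left out of that sum, 65 of the 78 varied more among antagomiR-122 mice. The share over all genes tested was 64.3%.

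Rpl13a (60S subunit, chr7:45125558-45136231, minus strand), whose protein is also known from interferon-driven control of translation, was the most abundant. Its level was 671, 764, 783 and 610 FPKM in the antagomiR-122 mice, against 750, 668, 622 and 709 FPKM in the antagomiR-control mice. The groups overlapped, with antagomiR-122 mouse 3 highest and antagomiR-122 mouse 4 lowest. The log2 fold change was 0.037 with a standard error of 0.10 (limma, adjusted p = 0.952). GENCODE places the readthrough gene Gm45713 over Rpl13a on the same strand, so some of its fragments may belong to that transcript.

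The acidic P-stalk proteins P1 and P2 sit with P0 at the site where elongation factors dock. Rplp1 (chr9:61913284-61914538, minus strand) was the next most abundant gene, at 603, 647, 810 and 533 FPKM in the antagomiR-122 mice, against 654, 587, 566 and 655 FPKM in the antagomiR-control mice. Rplp2 was at 200, 245, 288 and 198 FPKM in antagomiR-122 mice, against 230, 207, 212 and 240 FPKM in antagomiR-control mice. Rplp0, often used as a reference gene in PCR, was at 221, 264, 256 and 196 FPKM in antagomiR-122 mice, against 240, 214, 218 and 245 FPKM in antagomiR-control mice. In all 3 genes the highest value came from antagomiR-122 mouse 2 or 3 and the lowest from antagomiR-122 mouse 4, so the control values lay inside the antagomiR-122 range. The log2 fold change was 0.060 ± 0.12 for Rplp1, 0.054 ± 0.12 for Rplp2 and 0.023 ± 0.10 for Rplp0 (± standard error), with adjusted p of 0.939, 0.945 and 0.971 (limma).

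Rpl10, which completes the 60S subunit late in its assembly, averaged 491 ± 51.0 FPKM in antagomiR-122 mice and 458 ± 19.7 FPKM in antagomiR-control mice (SD, n = 4 each). Rps27 of the 40S subunit averaged 491 ± 65.0 FPKM in antagomiR-122 mice and 448 ± 33.8 FPKM in antagomiR-control mice. Rps29, a small zinc-binding protein of the 40S subunit, averaged 390 ± 48.0 FPKM in antagomiR-122 mice and 385 ± 16.3 FPKM in antagomiR-control mice. All 3 genes thus averaged within one antagomiR-122 SD of the control mean. Rpsa, the laminin-binding protein of the 40S subunit, was lower on the scale, at 106 ± 12.0 FPKM in antagomiR-122 mice and 103 ± 8.96 FPKM in antagomiR-control mice. Its difference of the means was below either SD, whereas those of Rpl10 and Rps27 were above the SD of the control mice. Of the 78 genes, 10 averaged 300 FPKM or more, 29 were between 200 and 300, 34 between 100 and 200 and 5 below 100. Of the 77 pairs of neighbours in the order by level, 73 differed by less than the largest SD of either gene in either group. The 4 gaps above it lay between Rplp1 and Rpl10 (632 and 474 FPKM over the 8 livers), Rps27 and Rps29 (469 and 388), Rpsa and Rpl29 (105 and 84.5) and Rpl37 and Rps4l (72.7 and 9.24). Outside Rps4l, single values in the 8 livers ran from 64.7 to 810 FPKM.

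**Figure D1:**
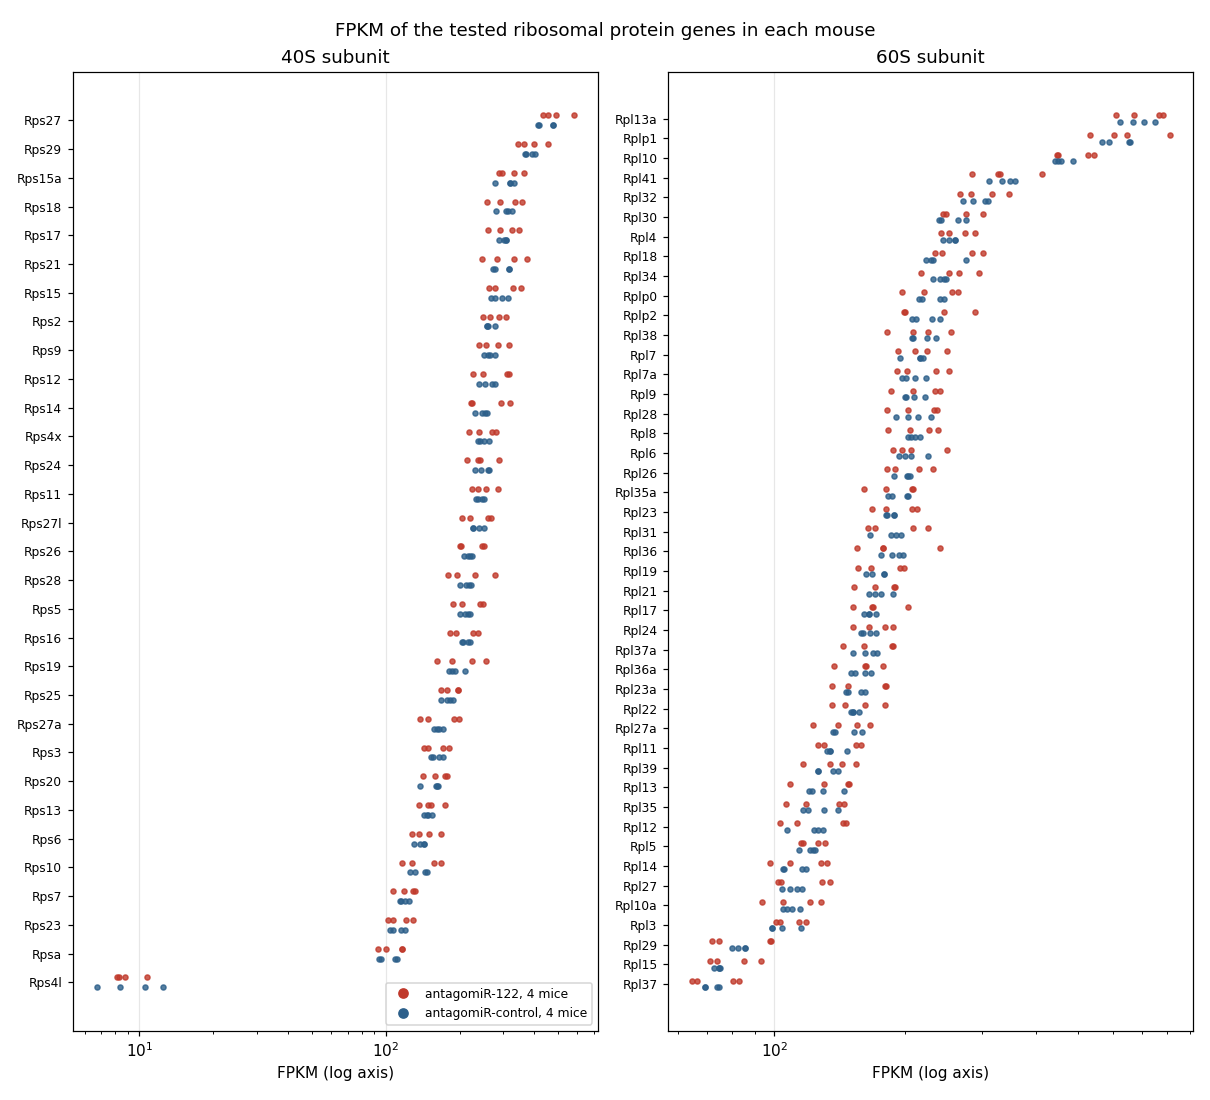
FPKM of 76 of the tested ribosomal protein genes in each mouse on log axes, with the 40S subunit on the left and the 60S subunit on the right, ordered by mean level; each point is 1 mouse, antagomiR-122 above antagomiR-control for each gene. The points of both groups overlap for every gene drawn. From FPKM as deposited, the antagomiR-122 points spread wider for every gene drawn other than Rps4l, which lies far below the others.

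The numbers of fragments behind these levels were large. Depth was estimated from the steps between low FPKM values at 20800000, 23000000, 25600000 and 54000000 fragments in the antagomiR-122 libraries, against 22100000, 25900000, 21800000 and 23400000 fragments in the antagomiR-control libraries. At those depths the median ribosomal protein gene rests on about 4100 fragments per library and the lowest on about 1100 outside Rps4l, for a counting error of 1.56% and 2.99%. These figures are approximate, since they use annotated mRNA lengths, and they cover counting error only. The deepest library is that of antagomiR-122 mouse 4, in which 15 genes are listed at 0 FPKM while they exceed 5 FPKM in all other livers, and no ribosomal protein gene is among them. The liver label was checked against 10 hepatocyte markers: Alb is listed at 0 in all 8 libraries, and the other 9 summed to between 24617 and 28140 FPKM in antagomiR-122 mice and between 24365 and 27718 FPKM in antagomiR-control mice.

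Whether any of these mRNAs differed between antagomiR-122 and antagomiR-control mice was tested with limma on log2(FPKM + 1) over all 11131 genes. With Benjamini-Hochberg adjustment, 0 of the 78 genes passed a threshold of 0.05 in either direction, where 0% of all genes tested passed as higher and 0% as lower. At an unadjusted p under 0.05, 0 of the 78 were higher or lower, against 3.76% of all genes tested that were higher and 3.67% that were lower. Groups that do not overlap occurred in 0 of the 78, against 2.38% of all genes with every antagomiR-122 value higher and 2.14% with every one lower. The authors' deposited table, from Cuffdiff, gives 0 of the 78 as significant, against 1.42% of the 13259 genes it tested, and its smallest q among the 78 is 0.999. The smallest limma p among the 78 was 0.204, with an adjusted p of 0.799. Every mouse is a separate animal, so these p-values refer to the spread between mice.

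The intervals show how large a change the data leave room for. The 95% intervals of the log2 fold changes reached a median of 0.21 to either side of the estimate. They reached from -0.30 to 0.39 over all genes other than Rps4l, whose interval went down to -0.42. A positive log2 fold change was found for 68 of the 78 genes, against 53% of all genes tested. That count moved with single mice: it was 28 of 78 without antagomiR-122 mouse 3 and 42 of 78 without antagomiR-122 mouse 2, and the median log2 fold change was then -0.015 and 0.00049. After quantile normalization 41 of the 78 were positive. The 40S genes had a median of 0.041, with 27 of 32 positive, and the 60S genes a median of 0.046, with 41 of 46 positive.

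**Figure D2:**
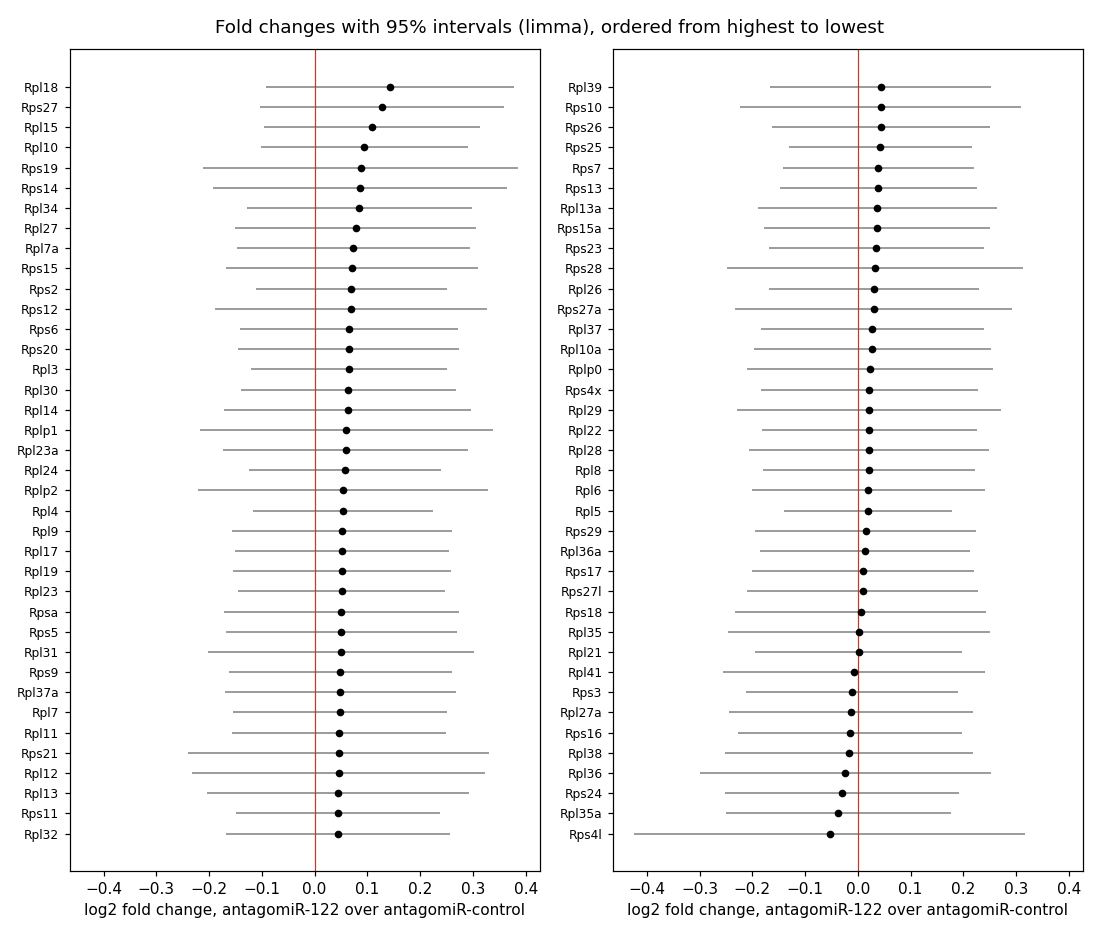
Log2 fold changes of 76 of the 78 genes, antagomiR-122 over antagomiR-control, with 95% intervals from limma, ordered from the highest in the left panel to the lowest in the right panel; the vertical line marks 0. Every interval crosses 0, and the estimates drawn run from 0.14 for Rpl18 to -0.054 for Rps4l.

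The genes with the smallest p among those above 0 were all of this small size. Rpl18 (60S subunit, chr7:45715457-45720835, plus strand), whose start is among the sequences above, was at 243, 284, 301 and 234 FPKM in antagomiR-122 mice, against 232, 223, 229 and 275 FPKM in antagomiR-control mice. Each antagomiR-122 value was above 3 of the control values, and antagomiR-control mouse 4 fell within the antagomiR-122 range. Its log2 fold change was 0.14 ± 0.11 (standard error; limma adjusted p = 0.799). Rpl18 overlaps Sphk2 on the opposite strand, and without a stated strand setting their fragments cannot be told apart.

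Rpl15, a core protein of the 60S subunit that overlaps Nkiras1 on the opposite strand, showed the contrast in spread most plainly. It was at 73.6, 92.9, 85.1 and 70.9 FPKM in antagomiR-122 mice, against 72.7, 74.7, 74.7 and 74.9 FPKM in antagomiR-control mice. The 4 control values differed by little, and the antagomiR-122 values lay on both sides of them. The log2 fold change was 0.11 ± 0.092 (limma adjusted p = 0.825). Rps27 (0.13, limma adjusted p = 0.820) and Rpl10 (0.094, adjusted p = 0.843) did not pass either.

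Among the 10 genes below 0, Rpl35a was at 181, 207, 208 and 161 FPKM in antagomiR-122 mice, against 202, 183, 187 and 201 FPKM in antagomiR-control mice. The control values lay inside the range of the antagomiR-122 values, and the log2 fold change was -0.037 ± 0.096 (limma adjusted p = 0.952). Rps24 (-0.030) and Rpl36 (-0.024) had smaller estimates. For each of these 3 genes antagomiR-122 mouse 3 was highest of the 8 and antagomiR-122 mouse 4 lowest. Rps4l, a copy of the X-linked Rps4x on chromosome 6, had 8.10, 8.30, 8.73 and 10.7 FPKM in antagomiR-122 mice, against 6.72, 10.6, 8.34 and 12.4 FPKM in antagomiR-control mice. It was the only gene of the 78 whose values varied more among the control mice, and the only one above its mean in antagomiR-122 mouse 4.

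The level of the whole group moved from mouse to mouse as one. Expressed as each gene's deviation from its own mean over the 8 livers, the median over the 78 genes was -0.065, 0.15, 0.18 and -0.18 log2 units in antagomiR-122 mice 1 to 4, against 0.028, -0.085, -0.062 and 0.032 in antagomiR-control mice 1 to 4. On the deposited scale the 2 highest livers and the lowest liver were therefore all antagomiR-122 livers. With FPKM scaled to equal summed FPKM this did not hold, as given below. The median over all genes tested stayed between -0.010 and 0.018 in every liver. In antagomiR-122 mice 1 to 4, 5, 72, 76 and 1 of the 78 genes were above their own mean, against 60, 2, 15 and 62 in antagomiR-control mice 1 to 4. Between antagomiR-122 mice 3 and 4 the difference in medians was 0.37 log2 units, or 1.29-fold, against 0.12 log2 units, or 1.08-fold, between the highest and the lowest control mouse.

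**Figure D3:**
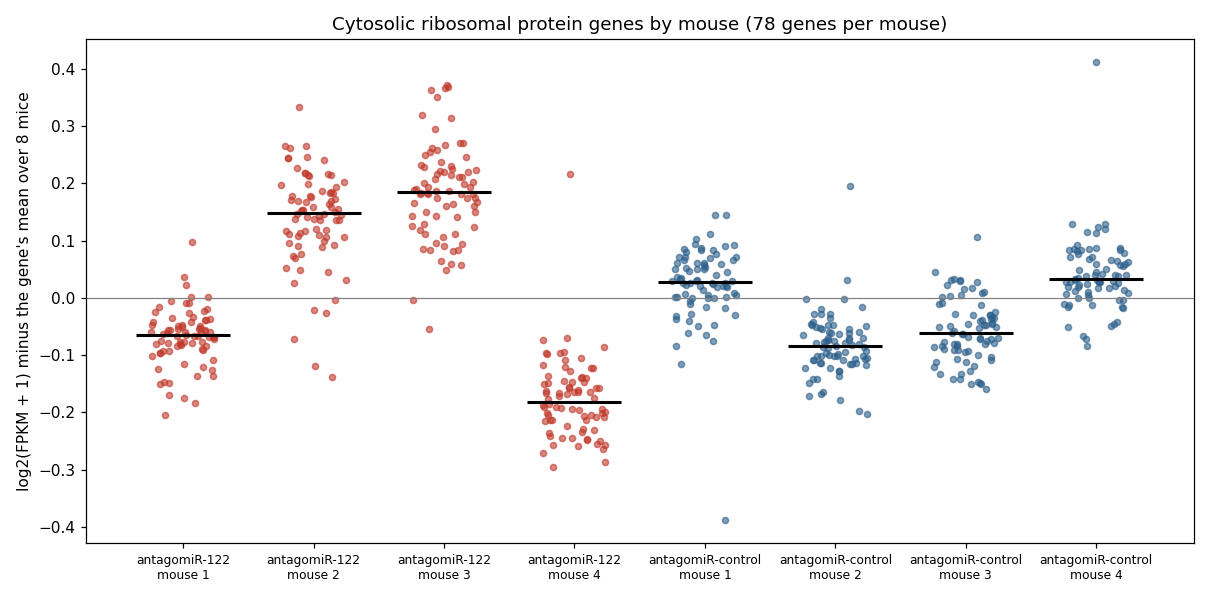
Deviation of log2(FPKM + 1) from the gene's mean over 8 mice, from FPKM as deposited, for the 78 genes in each mouse; each point is 1 gene, the black bar is the median, and antagomiR-122 mice are on the left. Nearly the whole group lies above 0 in antagomiR-122 mice 2 and 3 (medians 0.15 and 0.18) and below 0 in antagomiR-122 mouse 4 (median -0.18), while the medians of the control mice lie between -0.085 and 0.032.

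Most genes shared the lowest and the highest livers. AntagomiR-122 mouse 4 was the lowest of the 8 livers for 66 of the 78 genes, where it was the lowest for 10.8% of all genes tested. AntagomiR-122 mouse 3 was the highest for 49 genes, against 17.1% of all genes tested, and antagomiR-122 mouse 2 for 28, against 19.5%. One or the other of these 2 livers was thus the highest for 77 genes, against 36.6% of all genes tested. Both orders, mouse 2 or 3 highest and mouse 4 lowest, held for 66 of the 78 genes, against 5.93%. Of the other 12 genes, Rps4l ran the other way, with its highest value in antagomiR-control mouse 4. The library of antagomiR-122 mouse 4 is the one with over 2 times the depth of the others and with the 15 genes listed at 0, and the part of its processing in these orders was not tested. Over the 8 mice the median Pearson correlation between 2 of the 78 genes was 0.85 over 3003 pairs, and 95.1% of the pairs exceeded 0.5, whereas the median over all genes tested was 0.0050. These correlations are over 8 points that share their library, depth and scaling and contain the grouping, and they are given as a description. The genes lie on 19 chromosomes, with 14 of the 78 on chromosome 7 and 4 on the X chromosome.

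Both subunits took part alike. The 40S genes had medians of -0.079, 0.14, 0.19 and -0.17 log2 units in antagomiR-122 mice 1 to 4, against 0.032, -0.081, -0.048 and 0.031 in antagomiR-control mice 1 to 4. The 60S genes had medians of -0.060, 0.15, 0.18 and -0.19 in antagomiR-122 mice 1 to 4, against 0.025, -0.086, -0.070 and 0.033 in antagomiR-control mice 1 to 4. In no liver did the medians of the subunits have opposite signs.

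The spread between mice was wider in the antagomiR-122 group for 77 of the 78 genes, or 98.7%, against 63.2% of all genes tested. The median SD of log2(FPKM + 1) was 0.18 in antagomiR-122 mice and 0.074 in antagomiR-control mice. For all genes tested it was 0.16 in antagomiR-122 mice and 0.13 in antagomiR-control mice. Put as a coefficient of variation of FPKM, the median ribosomal protein gene varied by 12.5% among antagomiR-122 mice and 5.18% among antagomiR-control mice, and the median of all genes tested was 13.5% among antagomiR-122 mice and 11.1% among antagomiR-control mice. Rps19, whose human counterpart is the gene most often mutated in Diamond-Blackfan anaemia, had the widest spread among antagomiR-122 mice, with 186, 224, 256 and 161 FPKM, against 210, 181, 185 and 191 FPKM in antagomiR-control mice. The genes vary together, so the 77 genes are not independent, and the difference in spread was not tested.

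How far the spread rests on one library or on the scaling was checked with alternatives chosen after seeing the data. Without antagomiR-122 mouse 4, 74 of the 78 genes had the wider spread in the antagomiR-122 group, against 59.6% of all genes tested, and the median SD was 0.15 in antagomiR-122 mice and 0.074 in antagomiR-control mice. With any other single mouse left out the count was between 74 and 77. With FPKM scaled to equal summed FPKM in every library, the count was 45 of 78, against 76.7% of all genes tested, and the median SD was 0.088 in antagomiR-122 mice and 0.090 in antagomiR-control mice. The medians of the 78 genes were then -0.062, 0.027, 0.089 and 0.069 log2 units in antagomiR-122 mice 1 to 4, against 0.075, -0.087, -0.083 and -0.028 in antagomiR-control mice 1 to 4, so antagomiR-122 mouse 4 was no longer the lowest liver. This scaling moved the median of all genes tested to 0.23 in antagomiR-122 mouse 4 and to -0.087 and -0.085 in mice 2 and 3. When the 15 genes listed at 0 were left out of the sum, the count was 65 of 78, against 64.3% of all genes tested. The median SD was then 0.12 in antagomiR-122 mice and 0.081 in antagomiR-control mice. The median of the 78 genes in antagomiR-122 mouse 4 was -0.15, the lowest of the 8 livers. AntagomiR-122 mouse 3 was highest at 0.099, followed by antagomiR-control mouse 1 at 0.096 and antagomiR-122 mouse 2 at 0.056.

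**Figure D4:**
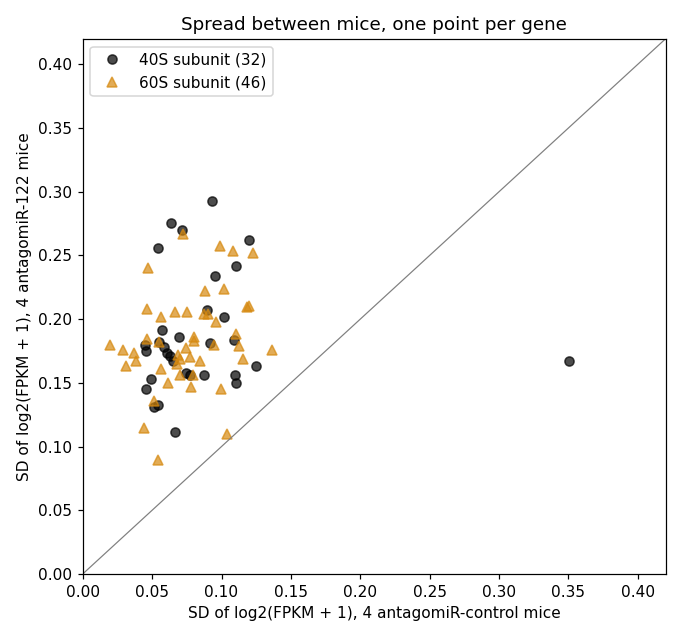
SD of log2(FPKM + 1), from FPKM as deposited, among the 4 antagomiR-122 mice (vertical axis) against that among the 4 antagomiR-control mice (horizontal axis), with 1 point per gene and the line of equal spread. All genes other than Rps4l, the point at the far right, lie above the line, and the medians are 0.18 in antagomiR-122 and 0.074 in antagomiR-control mice.

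Little was left once the shared shift was taken out. After the median of the 78 genes was subtracted in each liver, the median SD of a gene over the 8 mice dropped to 0.056, against 0.13 before. Of the 624 remaining values, 568 or 91.0% were within 0.1 log2 units of 0. The within-group SD was then 0.062 in antagomiR-122 mice and 0.047 in antagomiR-control mice. Rpl19, a 60S protein at the subunit interface, followed the group most closely, at 167, 194, 198 and 156 FPKM in antagomiR-122 mice, against 178, 162, 167 and 179 FPKM in antagomiR-control mice. Rps28, a small 40S protein whose gene overlaps Kank3 on the opposite strand, followed it least after Rps4l. It was at 230, 196, 278 and 180 FPKM in antagomiR-122 mice, against 222, 201, 212 and 217 FPKM in antagomiR-control mice, so antagomiR-122 mouse 2 was low for this gene though high for most others. With FPKM rescaled so that the median of these genes was equal in all livers, 0 of the 78 reached an unadjusted p under 0.05 and the smallest adjusted p was 0.999 (limma). That scaling takes out any difference that the genes share, so it can show only single genes departing from the group.

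The group as a whole held a similar part of the summed FPKM in both groups. That sum lacks Alb, which is listed at 0 in every library, so it is not the whole liver transcriptome. Summed over all 81 genes, the FPKM came to 15757, 18140, 18950 and 14559 in antagomiR-122 mice, against 16872, 15503, 15802 and 16959 in antagomiR-control mice. AntagomiR-122 livers held both the highest and the lowest sum, and the mean was 16852 ± 2043 FPKM in antagomiR-122 mice and 16284 ± 740 FPKM in antagomiR-control mice (SD, n = 4 each). As a part of all FPKM the sum was 2.45, 2.59, 2.75 and 2.69% in antagomiR-122 mice, against 2.71, 2.40, 2.42 and 2.52% in antagomiR-control mice. Taken this way antagomiR-122 mouse 4 was among the 3 highest livers, and the spread was no wider in the antagomiR-122 group. Without the 15 genes listed at 0 in antagomiR-122 mouse 4 the parts were 2.95, 3.07, 3.22 and 2.69% in antagomiR-122 mice, against 3.19, 2.87, 2.91 and 2.98% in antagomiR-control mice, with that mouse lowest. On average the part of all FPKM was 2.62% ± 0.132 in antagomiR-122 mice and 2.51% ± 0.140 in antagomiR-control mice. The difference of 0.108 percentage points was below either SD, and it was 0.024 without the mitochondrially encoded genes and -0.0034 without those 15 genes.

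Transcript length moved with the shift among the antagomiR-122 livers. The mRNAs of the ribosomal protein genes are short, with a median of 838 bases for the 77 with an annotated length, against 2868 bases for all genes tested. The 693 other genes with an mRNA under 1000 bases had medians of -0.054, 0.071, 0.17 and -0.062 log2 units in antagomiR-122 mice 1 to 4, against -0.037, -0.040, -0.055 and 0.0099 in antagomiR-control mice 1 to 4. The 1848 genes with an mRNA over 5000 bases had medians of 0.024, -0.043, -0.17 and 0.049 in antagomiR-122 mice 1 to 4, against 0.045, 0.042, 0.031 and 0.014 in antagomiR-control mice 1 to 4. Short and long genes thus lay on opposite sides of 0 in all 4 antagomiR-122 livers and in antagomiR-control mice 1 to 3. In antagomiR-122 mouse 3 the short genes came close to the ribosomal protein genes. In antagomiR-122 mice 2 and 4 the ribosomal protein genes stood further from 0 than the short genes did, at 0.15 and -0.18. Among the 192 short genes above 50 FPKM the medians were -0.063, 0.10, 0.18 and -0.081 in antagomiR-122 mice 1 to 4, against -0.052, -0.047, -0.059 and 0.021 in antagomiR-control mice 1 to 4. In antagomiR-control mouse 1 the short genes were below 0 and the ribosomal protein genes above it. The part of length in the shift was not tested.

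**Figure D5:**
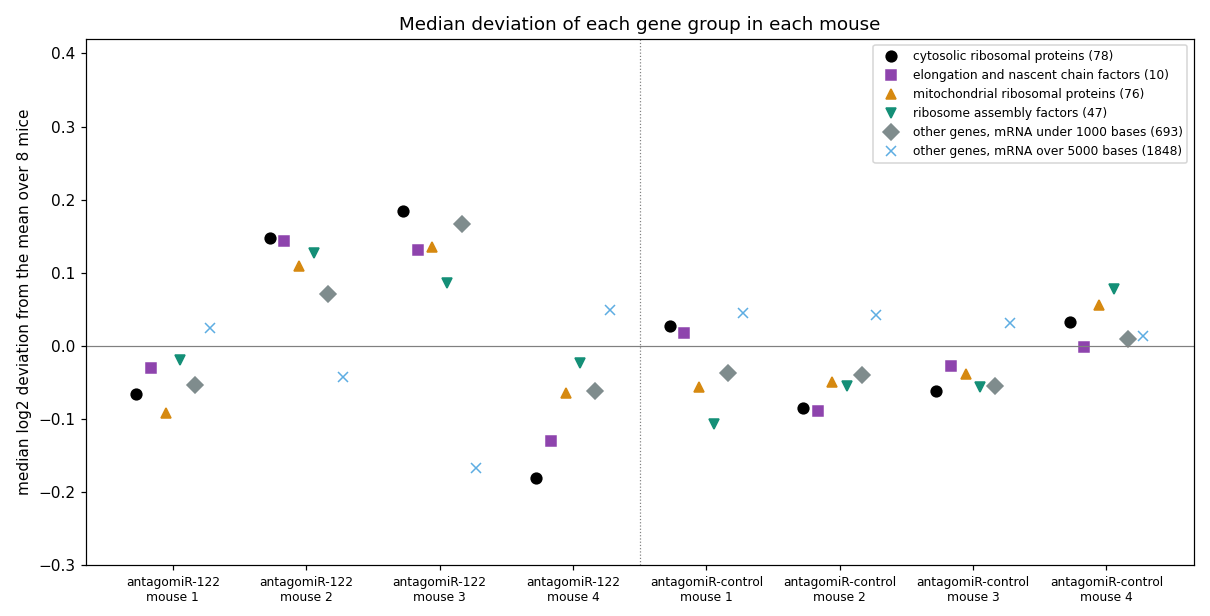
Median log2 deviation from the mean over 8 mice of 6 gene groups in each mouse, antagomiR-122 mice on the left, with the number of genes in brackets. Cytosolic ribosomal proteins, elongation factors and mitochondrial ribosomal proteins lie above 0 in antagomiR-122 mice 2 and 3 and below 0 in mice 1 and 4, as do other short mRNAs, and mRNAs over 5000 bases lie on the other side.

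Genes that work with the ribosome were set beside it from lists of known members, whose counts above 0 stand against 53% of all genes tested. Among ribosomal proteins that the naming rule leaves out, 6 were tested and 0 passed the adjusted threshold in either direction. Fau, which encodes a 40S protein fused to a ubiquitin-like one, was at 189, 201, 238 and 191 FPKM in antagomiR-122 mice, against 186, 191, 186 and 189 FPKM in antagomiR-control mice. AntagomiR-122 mice 2 and 3 were the highest and the groups overlapped (log2 fold change 0.11, limma adjusted p = 0.799). Rps27rt, a near copy of Rps27 with which it may share fragments, averaged 178 FPKM in antagomiR-122 mice and 157 FPKM in antagomiR-control mice. Rpl22l1 averaged 69.8 FPKM in antagomiR-122 mice and 70.8 FPKM in antagomiR-control mice.

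Elongation and nascent chain factors lay on the same side of 0 as the ribosomal proteins in all 4 antagomiR-122 livers. Their medians were -0.030, 0.14, 0.13 and -0.13 log2 units in antagomiR-122 mice 1 to 4, against 0.018, -0.089, -0.027 and -0.0014 in antagomiR-control mice 1 to 4. Of the 10 tested, 0 passed the adjusted threshold, 9 were above 0 and the median log2 fold change was 0.048, which ran between 0.00086 and 0.11 with one mouse left out. Pabpc1, the cytoplasmic poly(A)-binding protein, was at 150, 147, 161 and 154 FPKM in antagomiR-122 mice, against 138, 138, 141 and 146 FPKM in antagomiR-control mice. Its groups did not overlap, yet its log2 fold change of 0.12 did not pass (limma adjusted p = 0.738). Btf3 (0.099) and Nap1l1 (-0.064) had smaller estimates.

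Of the 27 initiation factors, 23 were above 0 with a median log2 fold change of 0.057, and 0 passed the adjusted threshold. Eif1, which guards the choice of the start codon, was at 374, 470, 460 and 398 FPKM in antagomiR-122 mice, against 325, 347, 365 and 370 FPKM in antagomiR-control mice. Every antagomiR-122 value was above every control value, and the log2 fold change was 0.27 ± 0.093 (unadjusted p = 0.0163, limma adjusted p = 0.561). Eif3m (0.15), Eif3a (-0.057) and Eif4a2 (-0.023) did not reach an unadjusted p under 0.05. In antagomiR-122 mouse 3, where the ribosomal proteins were highest, the median of the initiation factors was 0.027.

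The factors that build ribosomes had a median of 0.080 over 47 genes, with 40 above 0, 7 below 0 and 0 past the adjusted threshold. Eif6, which keeps immature 60S subunits from joining the 40S subunit, was at 50.8, 55.6, 71.3 and 54.1 FPKM in antagomiR-122 mice, against 42.5, 39.1, 43.6 and 47.2 FPKM in antagomiR-control mice. The groups did not overlap, and the log2 fold change was 0.41 ± 0.11 (unadjusted p = 0.0041, limma adjusted p = 0.430). Mybbp1a, a nucleolar protein of ribosomal RNA synthesis, averaged 21.3 ± 4.9 FPKM in antagomiR-122 mice and 14.4 ± 3.5 FPKM in antagomiR-control mice (SD, n = 4 each; log2 fold change 0.53, adjusted p = 0.602). Rrs1 (-0.20) and Tsr1 (-0.15), both needed for subunit maturation, were below 0. Among RNA polymerase I and its factors 9 of 14 were above 0, with 0 past the threshold and a median of 0.043 that was -0.0094 when genes under 5 FPKM were left out. Their values ran from Polr1e (0.29, adjusted p = 0.705) and Cd3eap (0.16) to Ttf1 (-0.33) and Rrn3 (-0.095).

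The list of regulators of ribosomal protein synthesis had 6 of 18 genes above 0, a median of -0.10 (-0.14 to -0.030 with one mouse left out) and 0 past the adjusted threshold. Mtor was at 12.4, 14.7, 16.7 and 16.7 FPKM in antagomiR-122 mice, against 10.3, 12.8, 12.7 and 11.5 FPKM in antagomiR-control mice. Only antagomiR-122 mouse 1 lay within the control range (log2 fold change 0.33 ± 0.11, limma adjusted p = 0.561). Max, the partner of Myc, averaged 12.3 ± 0.62 FPKM in antagomiR-122 mice and 10.8 ± 0.66 FPKM in antagomiR-control mice (SD, n = 4 each) without overlap of the groups (log2 fold change 0.18, adjusted p = 0.659). Gabpb1, a subunit of GABP, and Larp1 were below 0, at -0.25 and -0.19. Levels of these mRNAs do not report on the activity of mTOR, which is set at the protein level.

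Mitochondrial ribosomal proteins, which are encoded in the nucleus and serve a separate ribosome, offer a comparison with genes of the same kind. Of the 76 tested, 53 were above 0, the median log2 fold change was 0.042 (0.0034 to 0.088 with one mouse left out) and 0 passed the adjusted threshold. At an unadjusted p under 0.05, 4 were higher and 2 lower, where 3.76% and 3.67% of all genes tested were. Their medians of -0.093, 0.11, 0.13 and -0.065 log2 units in antagomiR-122 mice 1 to 4, against -0.056, -0.049, -0.039 and 0.056 in antagomiR-control mice 1 to 4, were likewise above 0 in antagomiR-122 mice 2 and 3 and below 0 in mice 1 and 4, but mouse 1 rather than mouse 4 was the lowest. Mrpl15 had 52.1, 60.5, 65.1 and 55.9 FPKM in antagomiR-122 mice, against 49.4, 49.5, 49.8 and 50.2 FPKM in antagomiR-control mice. Mrpl18 had 36.8, 31.3, 30.0 and 35.1 FPKM in antagomiR-122 mice, against 44.3, 39.0, 37.0 and 45.4 FPKM in antagomiR-control mice. Neither had overlapping groups, and neither passed (log2 fold changes 0.22 and -0.31, limma adjusted p = 0.577 and 0.504). Mrpl4 (0.18) and Mrpl19 (-0.27) had an adjusted p of 0.659 each.

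Several ribosomal proteins have a second copy, and the share taken by the copy was compared because a shift that both genes of a pair share cancels in it. Rps27l, a p53-responsive copy of Rps27, made up 31.0, 34.6, 31.5 and 33.5% of the FPKM of the pair in antagomiR-122 mice, against 33.3, 35.1, 35.0 and 34.4% in antagomiR-control mice. The groups overlapped, with means of 32.6% ± 1.71 in antagomiR-122 mice and 34.5% ± 0.822 in antagomiR-control mice (SD, n = 4 each). The difference of these means was above either SD and was not tested. Rpl22l1 made up 30.9% ± 1.57 of its pair with Rpl22 in antagomiR-122 mice and 31.7% ± 3.24 in antagomiR-control mice. Rpl36al made up 50.3% ± 2.00 of its pair with Rpl36a in antagomiR-122 mice and 49.6% ± 1.95 in antagomiR-control mice. For both copies the difference of the means was below either SD. Rps4l made up 3.50% ± 0.826 of its pair with Rps4x in antagomiR-122 mice and 3.72% ± 0.975 in antagomiR-control mice. Since Rps4l did not follow the shared shift, the shift stays in this share. It was 2.88, 3.13 and 4.71% in antagomiR-122 mice 2, 3 and 4.

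Among the partners of such copies, Rpl22, Rpl7 and Rpl39 were highest in antagomiR-122 mouse 2 or 3 and lowest in antagomiR-122 mouse 4. Rpl22 was at 145, 162, 179 and 136 FPKM in antagomiR-122 mice, against 150, 151, 157 and 152 FPKM in antagomiR-control mice. Rpl3, at the peptidyl transferase centre, averaged 109 ± 8.40 FPKM in antagomiR-122 mice and 104 ± 7.77 FPKM in antagomiR-control mice (SD, n = 4 each; log2 fold change 0.064, limma adjusted p = 0.891). Rpl7 averaged 219 ± 23.9 FPKM in antagomiR-122 mice and 211 ± 11.4 FPKM in antagomiR-control mice, and its log2 fold change of 0.049 did not pass. Rpl39, a small protein of the exit tunnel, averaged 137 ± 15.9 FPKM in antagomiR-122 mice and 132 ± 7.13 FPKM in antagomiR-control mice (log2 fold change 0.044). Rpl7l1 is listed at 0 in all 8 libraries.

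The 3 genes below 1 FPKM are copies known from muscle or testis. Rpl3l, the copy of Rpl3 in striated muscle, was at 0.0903, 0.0267, 0.0562 and 0.0338 FPKM in antagomiR-122 mice, against 0, 0.0707, 0.0871 and 0.0782 FPKM in antagomiR-control mice. These are values of a few fragments and overlapped (exact two-sided permutation test, p = 0.83, where 4 mice against 4 can reach 0.0286). Rpl39l, a copy of Rpl39 in testis, is listed above 0 only in antagomiR-122 mouse 4, at 0.0617 FPKM, which is the deepest library. Rpl10l, the copy of Rpl10 in testis, is listed at 0 in all 8 libraries. Pseudogenes carrying ribosomal protein names, of which the table holds 251, summed to at most 22.4 FPKM in any library, and 2 of them averaged above 1 FPKM.

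Since miR-122 was the target of the antagomiR, 3′ UTRs were searched for the letters that pair with its seed, ACACTCC or CACTCCA. For each gene only the transcript with the longest coding sequence was searched. Neither set of letters occurred in the 74 ribosomal protein genes with an annotated 3′ UTR on that transcript, against 13.7% of 10353 genes tested. Their 3′ UTRs are short, with a median of 89 bases against 916 bases for all genes tested, and the shares were not compared at equal length. The absence of these letters says only that they are not in the annotated stretch of that transcript, and 3′ UTRs of other transcripts were not searched.

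Markers of other cell types varied among the livers as well. The 6 endothelial markers summed to between 93.5 and 111 FPKM in antagomiR-122 mice and between 98.0 and 104 FPKM in antagomiR-control mice. The 6 Kupffer cell markers summed to between 149 and 186 FPKM in antagomiR-122 mice and between 144 and 193 FPKM in antagomiR-control mice, and the 6 stellate cell markers to between 91.9 and 188 FPKM in antagomiR-122 mice and between 128 and 188 FPKM in antagomiR-control mice. The 5 erythroid markers summed to between 195 and 350 FPKM in antagomiR-122 mice and between 167 and 249 FPKM in antagomiR-control mice. In these 4 lists the ranges of both groups overlapped. Neutrophil, adipocyte, cholangiocyte and lymphocyte markers summed to at most 11.8, 18.5, 3.90 and 4.31 FPKM in antagomiR-122 mice and to at most 23.4, 16.9, 4.04 and 2.76 FPKM in antagomiR-control mice. The median deviation of the endothelial markers was 0.059, -0.22, -0.084 and 0.13 log2 units in antagomiR-122 mice 1 to 4, against 0.17, 0.037, -0.024 and 0.0041 in antagomiR-control mice 1 to 4. In all 4 antagomiR-122 livers this was opposite in sign to the ribosomal protein genes, but in antagomiR-control mice 1, 3 and 4 it had the same sign. The Kupffer cell markers were at -0.12, -0.19, -0.048 and 0.15 in antagomiR-122 mice 1 to 4, against 0.24, 0.074, -0.15 and -0.072 in antagomiR-control mice 1 to 4. They were opposite in sign to the ribosomal protein genes in antagomiR-122 mice 2 to 4 and in antagomiR-control mice 2 and 4. The hepatocyte markers were at -0.058, 0.22, -0.022 and -0.0040 in antagomiR-122 mice 1 to 4, against -0.14, -0.058, 0.025 and 0.089 in antagomiR-control mice 1 to 4, and so were highest in antagomiR-122 mouse 2. The stellate cell markers were at 0.022, -0.32, 0.076 and -0.090 in antagomiR-122 mice 1 to 4, against 0.17, 0.16, -0.062 and -0.044 in antagomiR-control mice 1 to 4. The erythroid markers were at -0.11, -0.0094, 0.65 and -0.17 in antagomiR-122 mice 1 to 4, against 0.099, -0.077, -0.55 and 0.045 in antagomiR-control mice 1 to 4. Their highest value was in antagomiR-122 mouse 3, the liver with the highest ribosomal protein level. The part of any of these cell types in the shift was not tested.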

How the data were processed

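Liver RNA of 8 mice was sequenced, 1 library per mouse, in 2 groups of 4 named by the titles. The submitters' processing notes name GRCm38, Cufflinks 2.2.1 with Cuffdiff, TopHat2 2.0.13, and, for the raw reads, cutadapt 1.7.1 and bcl2fastq 2.15.0.4. For strand setting, annotation release and scaling between libraries, these sources give nothing. FPKM per mouse were deposited by the authors. Cuffdiff's group values, fold change and test statistic, a score without fixed range, were deposited beside them, as were its p-value and q-value, computed by the authors. Every column of per-mouse values was matched to a title, and 0 stayed unmatched.

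The 11131 genes averaging 1 FPKM or more were fitted on log2(FPKM + 1) by limma 3.58.1 (R 4.3.3) with its robust and trend options, two-sided, with Benjamini-Hochberg adjustment over all of them and a threshold of 0.05. The pseudocount of 1 understates changes of low genes. The script was tested on simulated data. No count test was used, since FPKM are not counts. Depth was estimated from values under 0.3 FPKM of genes over 1500 bases with 1 transcript. Single values under the filter were compared by an exact permutation test. Lengths, overlaps and 3′ UTRs came from GENCODE M21, start windows from RefSeq. Members and gene lists were chosen with earlier results of these data known. Named were the 5 genes with the smallest p in each direction, the 5 most abundant, the P-stalk genes, Rpsa, genes under the filter, partners of copies and 2 genes per direction of each list, of which some are not reported here. Rps19, Rps28, Rpl19, Rpl36al, Rpl36a, Rps4x and the genes whose starts are printed were named after their values were seen. Alternatives were other pseudocounts (0.1 and 5), filters (none and 5), scalings, a fit without trend and robust, a block and each mouse left out.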

Additional observations from a re-analysis of the deposited data

Results flagged for a closer look

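For the named genes, each group of 4 mice was checked for one value far from the other 3, relative to the range of the group. Of 42 such checks 3 stood out, all among antagomiR-control mice, where chance gives about 1 in 20. Rpl18 was at 275 FPKM in antagomiR-control mouse 4, above the other 3 control mice. Rpl15 was at 72.7 FPKM in antagomiR-control mouse 1 and Rpl7 at 194 FPKM in antagomiR-control mouse 2, each below the others. In Rpl15 the other 3 control values lay so close together that a gap of a few FPKM stands out.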

How the results depend on the processing

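Under every alternative that was run, 0 of the 78 ribosomal protein genes passed the adjusted threshold or an unadjusted p under 0.05 (limma), and the smallest adjusted p of any of them was 0.608, without antagomiR-122 replicate 4. The count with a positive log2 fold change, 68, was 41 after quantile normalization and between 28 and 76 with one mouse left out, and the cause was not tested. The median log2 fold change then ran between -0.015 and 0.11. Same-numbered mice correlated at 0.13, -0.24, -0.061 and -0.18 over all genes, and 2 of 8 libraries correlated best with their own number. Over the 78 ribosomal protein genes the correlations were 0.16, -0.24, -0.10 and 0.47 for replicates 1 to 4. These few values gave no clear pairing by number over all genes and cannot exclude one. With the replicate block, 0 genes passed, the smallest adjusted p of the 78 was 0.929 and the median log2 fold change stayed at 0.044.

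Signs of small estimates turned. After quantile normalization the log2 fold change was -0.013 for Rpl13a, -0.045 for Rps29, -0.0031 for Rplp0, -0.032 for Rps27l and -0.021 for Rpl22. The median of these genes was also made equal in all livers, a scaling chosen after seeing the data that takes out their shared difference. The log2 fold change was then -0.0060 for Rpl13a, -0.029 for Rps29, -0.020 for Rplp0, -0.034 for Rps27l and -0.021 for Rpl22. Median-of-ratios scaling gave -0.00091 for Rps27l. With one mouse left out, the range was -0.085 to 0.038 for Rpl35a, -0.19 to 0.075 for Rps4l, -0.11 to 0.034 for Rps24, -0.15 to 0.062 for Rpl36, -0.015 to 0.11 for Rpl13a, -0.053 to 0.15 for Rplp1, -0.060 to 0.071 for Rps29, -0.037 to 0.11 for Rplp0, -0.054 to 0.12 for Rplp2, -0.015 to 0.12 for Rpl39, -0.050 to 0.079 for Rps27l, -0.050 to 0.084 for Rpl22 and -0.015 to 0.11 for Rpl7. The cause of these turns was not tested. The count with the wider spread among antagomiR-122 mice, 77, was 45 with FPKM scaled to equal summed FPKM. It was 65 when the 15 genes listed at 0 in antagomiR-122 mouse 4 were left out of the sum. With one mouse left out, the list medians ran between 0.0125 and 0.112 for the ribosomal proteins left out by the naming rule, 0.022 and 0.082 for initiation, 0.047 and 0.11 for assembly and 0.011 and 0.073 for RNA polymerase I. With 4 mice a group, intervals reaching a median of 0.21 log2 units to either side limit what can be seen, and counting error adds little at these levels.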
